A study of Rattus norvegicus with 2 samples.

Results

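The rat genes of the Fc gamma receptor system Fcgr1a, Fcgr3a, Fcgr2b and Fcer1g were followed by their symbols among the 26976 gene symbols of a single-cell RNA-seq count matrix. They are 4 of 26976 symbols, and each stands on 1 line of the gene list. The cells were CD45+ immune cells sorted from the left ventricles, infarct and border tissue together, of wild-type rats 7 days after surgery. One group (MI) had a myocardial infarction and the other (MI+PUR-hAESC) had the infarction and a polyurethane patch carrying human amniotic epithelial stem cells, with 1 sample in each group. The labels give no age, sex or strain of the rats, and do not say how many hearts a sample holds.

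Cells of both samples stand in 1 matrix and are told apart by a barcode suffix of 1 or 2. Which suffix is which group could not be worked out, so they are called library 1 and library 2, and the direction of a difference carries no treatment. The libraries held 14283 and 15666 barcodes, with a median of 3692 and 4367.5 UMIs (unique molecular identifiers, 1 per captured transcript) per barcode, and shared 71 barcode sequences. After filtering, 13334 and 14434 cells were kept. Each library is 1 sample, so nothing below is tested. Intervals in parentheses are exact 95% intervals that cover counting error only.

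Fc gamma receptors bind the constant part of IgG and tell a cell that a target carries antibody. Fcgr1a encodes the high-affinity receptor CD64, and Fcgr3a a lower-affinity activating receptor of the CD16 group. Both signal through the common gamma chain encoded by Fcer1g, whose tail recruits the kinase Syk. Fcgr2b encodes CD32B, the inhibitory receptor, which recruits the phosphatase SHIP1 (Inpp5d) and restrains activating receptors and the B cell receptor. Macrophages take up antibody-coated debris through these receptors, natural killer (NK) cells kill antibody-coated targets through CD16, and B cells carry the inhibitory receptor.

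In RefSeq the symbol Fcgr3a belongs to a gene also called CD16-2 and Fcgr4, while Fcgr3a is also listed there as an older name of Fcgr2a. The sources used here do not pair the identifier in the matrix with either gene, so which of them its Fcgr3a line counts could not be settled. RefSeq also places Fcgr2a, Fcgr2al1 and Fcgr2a-ps1 on chromosome 13 with Fcgr2b, Fcgr3a and Fcer1g, and Fcgr1a on chromosome 2. No level of Fcgr2a or its relatives is given here. Reads from such similar genes can be shared out or lost in counting, so Fcgr3a and Fcgr2b levels are uncertain to that extent.

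Of the 4 genes, 1 had a promoter in the RefSeq table of build GRCr8, the gene RefSeq now calls Fcgr3a. Its 250 bases before the start are shown because Fcgr3a differed most between the libraries. They run 5′ to 3′ on the + strand at chr13:85782386-85782635. Capitals mark the only match to GAGGAAGT, a form of the site bound by the myeloid factor PU.1, which lies on the opposite strand from 56 to 49 bases before the start.
Fcgr3a: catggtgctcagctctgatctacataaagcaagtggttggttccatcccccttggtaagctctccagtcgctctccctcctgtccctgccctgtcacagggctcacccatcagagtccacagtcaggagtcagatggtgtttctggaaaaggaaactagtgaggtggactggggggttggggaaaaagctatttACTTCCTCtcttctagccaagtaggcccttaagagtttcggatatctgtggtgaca
The same letters, searched on both strands, occur in this window for 2.20% of the 27457 genes in the table. A match describes the letters and does not show binding.

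Cells were assigned to a class when at least 3 of its marker genes had a UMI and no other class had more than 0.5 times as many markers. None of the markers was an Fc receptor gene. This gave 1764 and 1547 macrophages in library 1 and library 2, 4276 and 1799 neutrophils, 204 and 37 classical monocytes, 213 and 489 non-classical monocytes, 631 and 1299 B cells, 1206 and 1956 NK cells, and 1297 and 2083 T cells. A further 27.0% and 35.6% of kept cells met no gate. These cells held 24.8% and 33.4% of all Fcgr1a UMIs, 33.7% and 36.9% of Fcgr3a UMIs and 26.3% and 31.2% of Fcer1g UMIs. Rankings of classes below do not cover them. Conventional dendritic cells were too few to describe, at 23 and 18. Levels are counts per 1000000 UMIs of the class (CPM). The chemistry counts 3′ ends, so they are not divided by gene length, and capture can differ between genes.

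Fcgr1a, the high-affinity receptor, was a myeloid transcript. Neutrophils had 511 CPM (497 to 525) in library 1, the highest level there, against 372 CPM (357 to 388) in library 2. Classical monocytes had 265 (240 to 292) and 320 (255 to 395) CPM, so in library 2 their interval, from 37 cells, held that of neutrophils. Non-classical monocytes had 243 (213 to 276) and 207 (188 to 227) CPM, and macrophages 195 (187 to 203) and 224 (215 to 233). The order of these 3 classes differed between the libraries, and the intervals of the 2 monocyte classes overlapped in library 1, as did those of macrophages and non-classical monocytes in library 2. In NK, B and T cells it lay between 2.78 and 8.95 CPM.

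Fcgr3a had a narrower distribution. Non-classical monocytes, the patrolling type marked by CD16 in humans, had 585 CPM (538 to 635) in library 1 against 1133 CPM (1089 to 1179) in library 2. Macrophages followed with 138 CPM (131 to 144) and 504 CPM (490 to 517). NK cells had 27.3 CPM (23.1 to 31.9) and 24.2 CPM (21.3 to 27.4). Gated classical monocytes, 204 and 37 cells, held only 6 and 7 UMIs in all. Cell cluster 13, led by Fcnb, Thbs1 and Vcan, held more cells, 731 and 372, of which 21.8% met a gate. Over all its cells, gated or not, it had 7.29 and 51.4 CPM of Fcgr3a (clusters are described below). Neutrophils had 4.40 and 15.6 CPM of Fcgr3a. Of the 45 neutrophil UMIs of library 1, 73.3% came from 5 cells.

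Among the gated classes Fcgr2b, the inhibitory receptor, was highest in classical monocytes, at 269 CPM (244 to 296) and 199 CPM (149 to 261). Cells that met no gate held 50.2% and 51.9% of all Fcgr2b UMIs, and this ranking does not cover them. Macrophages had 127 CPM (121 to 134) and 118 CPM (112 to 125), neutrophils 109 CPM (102 to 115) and 99.9 CPM (92.0 to 108), and B cells 97.5 CPM (84.1 to 113) and 88.4 CPM (79.4 to 98.2). The intervals of neutrophils and B cells overlapped in both libraries. NK cells had 9.21 and 9.75 CPM. Non-classical monocytes, the class with most Fcgr3a, had 33.4 CPM (22.99 to 46.9) and 13.3 CPM (8.90 to 19.1).

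Fcer1g, the shared signalling chain, was the most abundant of the 4 in every class with over 100 cells in each library except B cells, where Fcgr2b was higher. It reached 3785 and 3272 CPM in neutrophils, 3556 and 3838 in non-classical monocytes, 2374 and 2677 in macrophages and 1832 and 1738 in NK cells. B cells had 44.1 and 59.4 CPM and T cells 139 and 101 CPM. Classical monocytes had 1971 CPM (1902 to 2042) and 2325 CPM (2146 to 2516), so NK cells lay below the myeloid classes named here and far above B and T cells. NK cells held 56.2 and 59.6 Fcer1g UMIs per UMI of Fcgr1a plus Fcgr3a, against 7.13 and 3.68 in macrophages and 7.34 and 8.44 in neutrophils. The gamma chain also pairs with other receptors, among them the NK receptor NKp46 (Ncr1) in humans and mice.

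**Figure D1:**
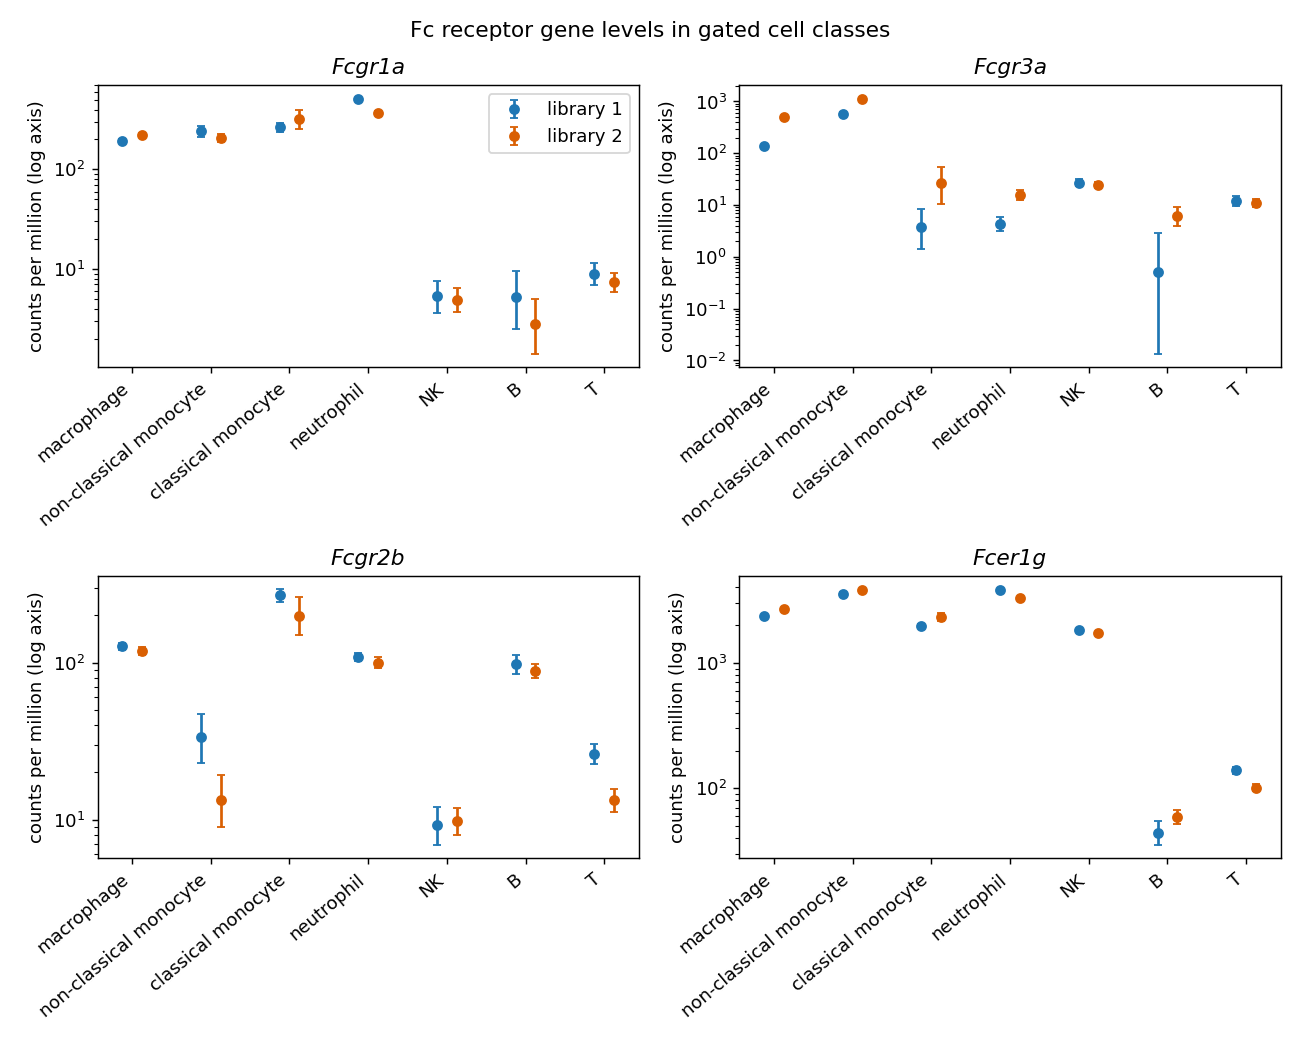
Level of each gene (CPM, log axis) in 7 gated classes, with library 1 in blue and library 2 in orange and bars giving exact 95% Poisson intervals for counting error. Fcgr1a is low in NK, B and T cells, Fcgr3a is highest in non-classical monocytes (585 and 1133 CPM) and Fcgr2b in classical monocytes, while Fcer1g is high in all myeloid classes and NK cells.

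The balance between activating and inhibitory transcripts followed from these levels. Here and below, activating transcripts are those of the Fcgr1a and Fcgr3a lines alone. No other activating receptor is in the totals. Fcgr1a plus Fcgr3a made up 96.1% (94.6 to 97.3) and 99.0% (98.6 to 99.3) of the 3 receptors' UMIs in non-classical monocytes. In neutrophils the share was 82.6% (81.6 to 83.5) and 79.5% (78.0 to 81.0), and in macrophages 72.4% (71.2 to 73.5) and 86.0% (85.3 to 86.8). Classical monocytes had 49.9% (46.5 to 53.4) and 63.4% (55.1 to 71.3). B cells lay at the inhibitory end, with 5.53% (2.79 to 9.68) and 9.09% (6.41 to 12.4).

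The activating part, Fcgr1a plus Fcgr3a alone, differed in make-up between classes. Fcgr1a gave 99.1% and 96.0% of activating UMIs in neutrophils. It gave 58.6% of them in macrophages of library 1 and 30.8% in those of library 2, where Fcgr3a was the larger part. In non-classical monocytes it gave 29.3% and 15.4%, and in NK cells 16.3% and 16.9%.

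**Figure D2:**
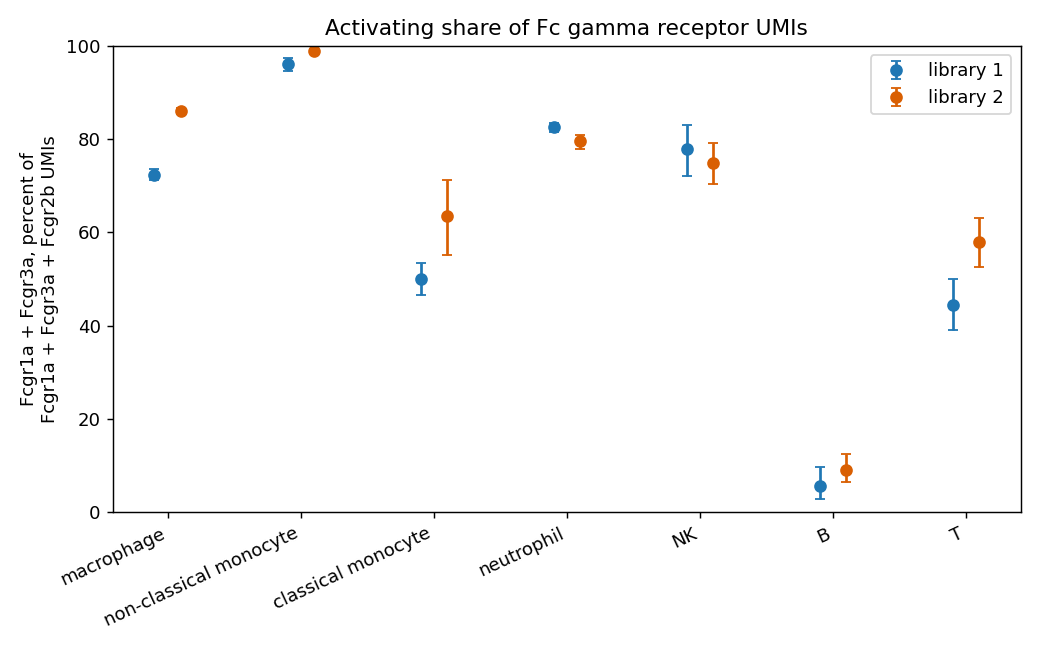
Fcgr1a plus Fcgr3a as a percent of Fcgr1a, Fcgr3a and Fcgr2b UMIs in each gated class, with library 1 in blue, library 2 in orange and exact 95% binomial intervals. Non-classical monocytes lie above 96%, B cells below 10%, and macrophages at 72.4% and 86.0%.

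Shares of cells with a UMI were compared after thinning each cell to 1500 UMIs, with shallower cells left out. T-gated cells were set beside them as a comparison, which is not a clean background. Cluster 8, led by genes of antigen-presenting cells, held 60.2% and 29.8% of the Fcgr3a UMIs of the T gate. Cluster 9, led by Ctsw, Ccl5 and Cd8b, had 52.8 and 71.5 CPM of Fcgr3a over all its cells, gated or not. Fcgr3a was seen in 15.3% (13.6 to 17.1) of macrophages in library 1 and 33.6% (31.2 to 36.0) in library 2, after leaving out 92 and 64 cells. T cells gave 0.697% and 1.32%. Before thinning the macrophage shares were 33.8% and 59.5%, at median depths of 6904 and 6447 UMIs, and the T cell shares 1.31% and 3.51%, at 4545 and 4688 UMIs. The higher Fcgr3a level of library 2 thus came with more macrophages in which it was seen.

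At the same depth Fcgr1a was seen in 50.7% and 42.4% of neutrophils and in 0.465% and 0.538% of T cells, and before thinning in 64.3% and 60.6% of neutrophils. Fcgr2b was seen in 11.9% and 11.8% of B cells, against 0.930% and 0.831% of T cells, and before thinning in 19.7% and 20.6% of B cells. In NK cells Fcgr2b was at 0.423% and 0.623%, and 73.1% and 54.5% of its UMIs in the NK gate came from 5 cells of each library. Fcgr3a in NK cells, at 3.38% and 2.60%, was above the T cell share, and stood at 7.30% and 6.44% before thinning. Fcgr3a was in 0 of 613 B cells of library 1, which allows a share of up to 0.489%, and in 1.01% of those of library 2.

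Activating and inhibitory transcripts were not kept to separate macrophages. At 1500 UMIs, 4.96% and 6.41% of macrophages held UMIs of both kinds, 30.7% and 46.1% activating only, 9.45% and 5.06% inhibitory only, and 54.9% and 42.4% neither. Fcgr2b was seen in 13.9% of library 1 macrophages with an activating UMI and 14.7% of those without. In library 2 the values were 12.2% and 10.7%. Thinned to 1000 UMIs they were 11.1% and 8.94% in library 1 and 6.98% and 8.46% in library 2. Before thinning, in cells of unequal depth, they were 43.0% and 27.4% in library 1 and 32.1% and 16.5% in library 2. Their order thus changed with depth.

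Within the macrophage gate the receptors differed by cluster. Clusters were made without the Fc receptor and pathway genes and are named by their leading genes. Cluster 3, led by the complement genes C1qc, C1qa and C1qb, had a Fcgr3a level of 270 CPM (254 to 287) in library 1 against 714 CPM (691 to 738) in library 2. It held 57.4% and 69.7% of the macrophage Fcgr3a UMIs in 33.7% and 54.6% of the cells. Cluster 1, led by Apoe, Pltp and Gpnmb, had 76.4 CPM (70.1 to 83.2) and 223 CPM (207 to 239).

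The inhibitory receptor had another distribution. Cluster 2, led by Ccl24, Prg4 and Fn1, had a Fcgr2b level of 535 CPM (478 to 596) in library 1 against 593 CPM (538 to 653) in library 2, in 56 and 92 gated cells. Clusters 1, 3, 21 and 24 had between 12.05 and 136 CPM. Over all its cells, gated or not, cluster 2 had 497 and 561 CPM, above gated classical monocytes in both libraries. Among gated macrophages, those of cluster 2 had the lowest activating share, 33.9% and 62.7%, against 81.9% and 93.2% in cluster 3. Only 33.8% of the 344 and 284 cells of cluster 2 met a gate, and 69.8% of those were gated as macrophages. Over all its cells the share was 32.5% and 56.2%.

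NK cells were split as well. Cluster 23, led by the cytotoxic genes Gzma and Prf1, had 151 CPM (126 to 180) and 145 CPM (121 to 173) of Fcgr3a. Cluster 16, led by Klri1, Xcl1 and Ncr1 and holding 75.2% and 72.7% of the gated NK cells, had 2.22 CPM (1.01 to 4.20) and 4.18 CPM (2.80 to 6.00). Cluster 23 thus carried 83.8% and 50.8% of the NK Fcgr3a UMIs in 15.8% and 8.54% of the cells. Cluster 16 held 5.84% and 11.8% of those UMIs, cluster 17 held 0.649% and 1.63%, and cluster 22 held 0% and 4.47%. The rest lay in NK-gated cells of clusters with under 20 such cells in a library. Among these was cluster 14, whose leading genes include Fcrl6 and Il4. Over all its 14 and 246 cells it had 1 and 6 Fcgr3a UMIs. Over the whole NK gate, 5 cells of each library held 17.5% and 23.6% of the Fcgr3a UMIs. Fcer1g was at 1740 and 1703 CPM in cluster 16 and 2426 and 2250 CPM in cluster 23, so the chain was abundant with and without Fcgr3a. T cell cluster 0, led by Rab3ip and Lef1, had 0.440 and 5.26 CPM of Fcgr3a, with intervals that overlapped those of NK cluster 16. The gated cells of T cluster 9 had 8.75 CPM (4.52 to 15.3) and 16.7 CPM (11.9 to 22.9), above NK cluster 16 in both libraries.

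**Figure D3:**
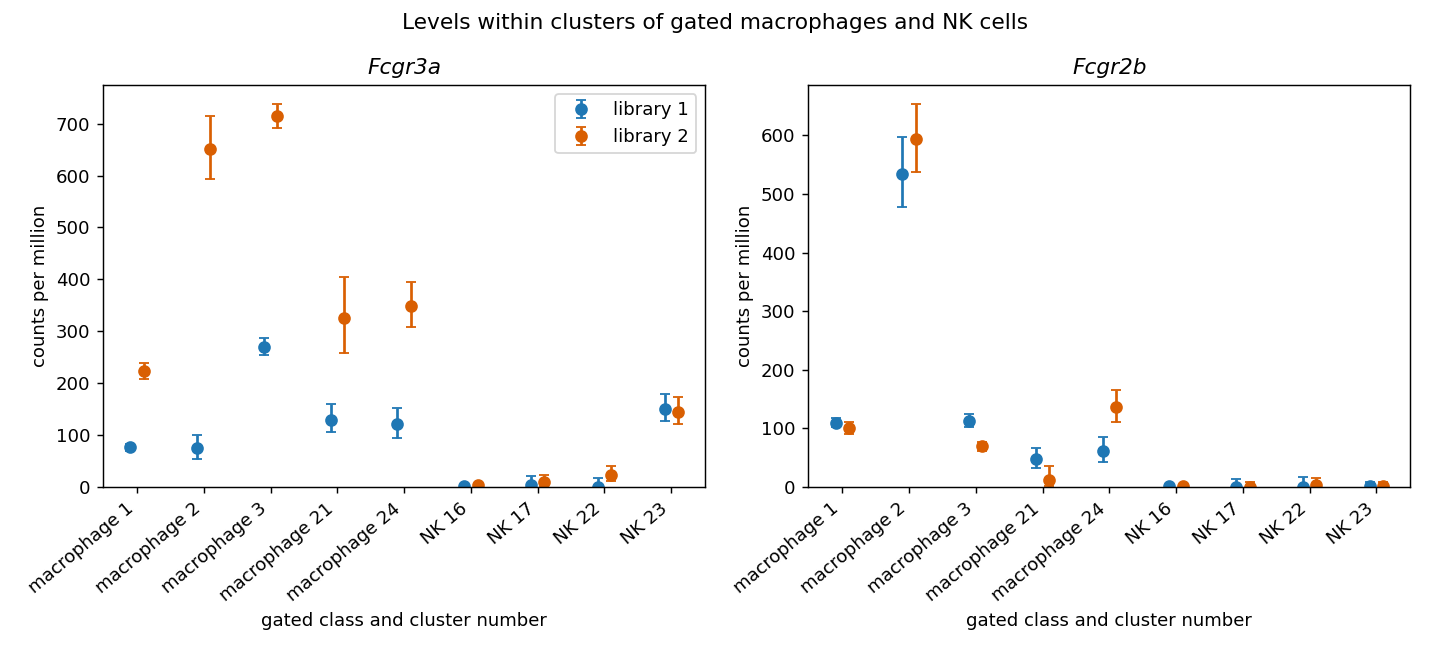
Fcgr3a (left) and Fcgr2b (right), in CPM, in gated macrophages and NK cells of the clusters named under the axis, with library 1 in blue, library 2 in orange and exact 95% Poisson intervals. Fcgr3a is higher in library 2 in all 5 macrophage clusters and is high in NK cluster 23 alone of the 4 NK clusters drawn, while Fcgr2b is highest in macrophage cluster 2.

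Differences between the libraries were set beside those of all genes with at least 20 CPM in either library, as log2 ratios of CPM + 10 (which understates the change of low genes) with counting errors. In macrophages 1 of the 4 genes passed 1.5-fold, against 3.85% of 5405 genes. It was Fcgr3a, whose plain CPM was 3.65-fold higher in library 2. With 10 CPM added its log2 ratio was 1.80 ± 0.04 (counting SE), and 0.204% of genes differed more. Fcgr1a (0.19), Fcer1g (0.17) and Fcgr2b (-0.10) stayed within the fold over the whole gate. The median of all genes was 0.04. Within clusters Fcgr2b was past the fold in both directions, at -0.64 in cluster 3, -1.37 in cluster 21 and 1.04 in cluster 24. Cluster 21 rested on 34 and 3 UMIs and cluster 24 on 35 and 97 UMIs. Fcgr1a was at 0.76 in cluster 2, from 121 and 243 UMIs. The share of all genes past the fold was worked out for whole classes only, so these cluster values have no such comparison.

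The higher Fcgr3a level of library 2 was found in each of the 5 macrophage clusters with 20 or more gated cells in both libraries. The log2 ratio was 1.43 in cluster 1, 2.97 in cluster 2, 1.37 in cluster 3, 1.26 in cluster 21 and 1.46 in cluster 24. With each cluster's CPM weighted by its cells in both libraries together, the log2 ratio was 1.44, against 1.80 for the whole gate. The 7 measured markers of non-classical monocytes, the class with most Fcgr3a, summed to 69.0 CPM in macrophages of library 1 and 109 CPM in those of library 2, against 3493 and 3774 CPM in non-classical monocytes. Their part in the result was not tested. Low levels in cells that should lack the gene also differed, with 0.519 CPM (0.0131 to 2.89) in B cells of library 1 and 6.06 CPM (3.89 to 9.02) in those of library 2.

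Non-classical monocytes had 2 of 4 genes past the fold, against 7.36% of 5298 genes. Fcgr3a was higher in library 2 by 0.94 ± 0.07 and Fcgr2b was lower, at -0.90 ± 0.25, from 33 and 29 UMIs. Its levels of 33.4 and 13.3 CPM became 75.8 and 27.5 CPM when a second class could have 0.75 times as many markers, and T cells of library 2 also had 13.3 CPM. Of those Fcgr2b UMIs, 51.5% and 55.2% came from 5 cells in each library.

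In neutrophils 0 of the 3 genes above the minimum passed the fold, against 9.18% of 3877 genes, and the largest difference was Fcgr1a at -0.45 ± 0.04. Within neutrophil clusters 6 and 7 its log2 ratio was 0.12 and 0.03, and in cluster 5 it was -0.23. Fcgr2b was past the fold in cluster 7, at 1.00, with 35.7 and 81.8 CPM from 48 and 343 UMIs. Cluster 5, led by Il1r2 and G0s2, held 67.1% of gated neutrophils in library 1 and 29.8% in library 2, and cluster 7, led by Retnlg and the interferon-induced Isg15, held 11.9% and 63.0%.

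NK and B cells each had 0 of 2 genes past the fold, against 3.06% of 5564 and 1.88% of 5634 genes. Over the whole gate, Fcgr3a in NK cells differed by -0.12 ± 0.11, Fcer1g in NK cells by -0.08 ± 0.02 and Fcgr2b in B cells by -0.13 ± 0.12. Within NK clusters 16, 17, 22 and 23 the Fcgr3a log2 ratio was 0.21, 0.50, 1.69 and -0.05. Those of clusters 16, 17 and 22 rested on 9 and 29, 1 and 4, and 0 and 11 UMIs. The whole-gate value also counts Fcgr3a UMIs of NK-gated cells outside these clusters. In T cells 1 of 2 passed, against 2.13% of 5345 genes. It was Fcgr2b, at -0.63 ± 0.10, and 74.6% and 63.95% of its UMIs came from the 36 and 40 gated cells in cluster 8, which is led by Ccl17, Cst3 and class II genes of antigen-presenting cells.

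**Figure D4:**
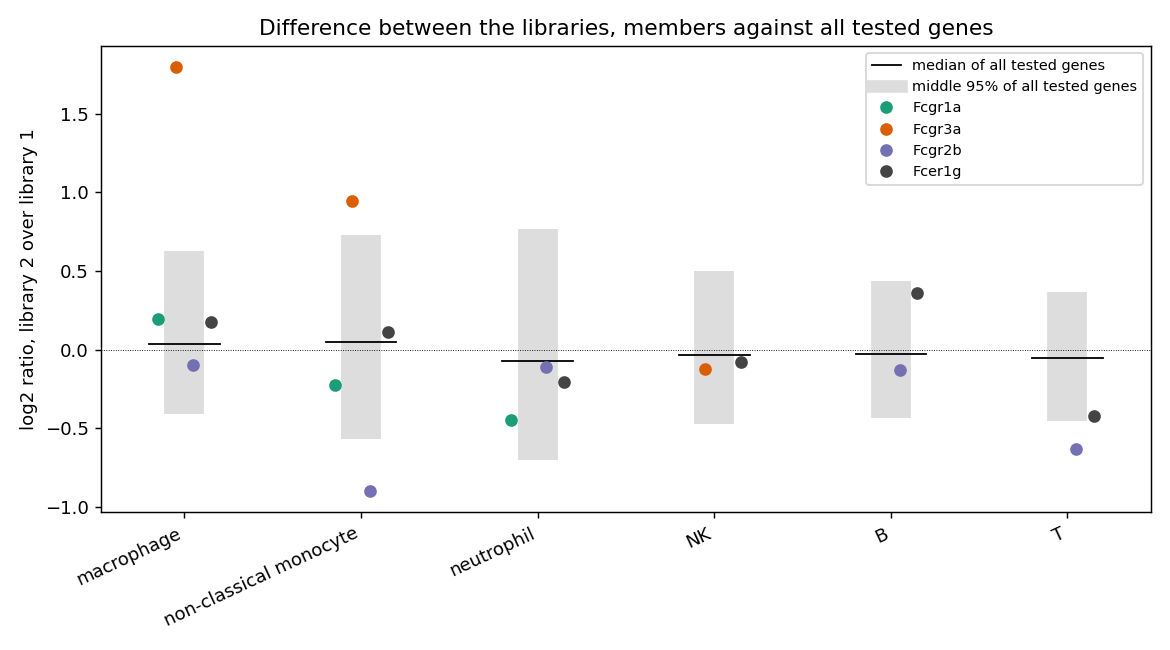
Log2 ratio of library 2 over library 1 for each gene with at least 20 CPM in either library (coloured points), beside the middle 95% (grey bar) and the median (line) of all genes tested in that class. Fcgr3a in macrophages (1.80) and in non-classical monocytes (0.94) lies above the grey bar, and Fcgr2b in non-classical monocytes (-0.90) and T cells (-0.63) below it.

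Signalling genes around the receptors were listed as well. Of 26 listed adaptors and activating signalling genes, 17 were above the minimum in macrophages and 0 passed the fold, against 3.85% of all genes, with a median log2 ratio of 0.17 against 0.04 for all genes. Tyrobp, the DAP12 adaptor, had 4005 and 3849 CPM, the Src-family kinase Lyn 251 and 306 CPM, and Syk 103 and 117 CPM. Of 10 inhibitory signalling genes 9 were above the minimum and 0 passed. Inpp5d, the SHIP1 phosphatase, had 120 and 128 CPM and Ptpn6, the SHP-1 phosphatase, 243 and 292 CPM.

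The same lists had 0 genes past the fold in neutrophils (15 and 7 above the minimum), NK cells (18 and 8) and B cells (20 and 8), where 9.18%, 3.06% and 1.88% of all genes passed. Such shares give few calls in lists of this size, so the counts do not set the lists apart. NK cells had Cd247, the zeta chain that also couples CD16 in human NK cells, at 195 and 200 CPM. In non-classical monocytes 2 of 18 activating and 1 of 8 inhibitory signalling genes passed, against 7.36% of all genes. Lcp2, the SLP-76 adaptor, was higher in library 2 (0.61), and Pik3r1 (-0.62) and the ubiquitin ligase Cblb (-0.75) were lower. In T cells Tyrobp was lower in library 2 (-0.71), 1 of 15 activating signalling genes, against 2.13% of all genes.

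Of 16 other listed Fc receptors, 13 were measured. In macrophages 3 were above the minimum: Trim21, the cytosolic antibody receptor, was higher in library 2 (0.65, from 20.8 and 38.3 CPM), the IgM receptor Fcmr was lower (-0.61), and the neonatal receptor Fcgrt, which recycles IgG, had 171 and 124 CPM. In neutrophils the only one above the minimum was Trim21, also higher in library 2 (0.80). B cells had 6 above the minimum and 0 past the fold, led by Fcmr at 1036 and 1144 CPM, Fcrla at 394 and 375 CPM and the IgE receptor Fcer2 at 190 and 159 CPM. Of all genes, 3.85% passed the fold in macrophages, 9.18% in neutrophils and 1.88% in B cells. Lists of 3, 1 and 6 genes are too short to set against these shares.

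Similarity of pattern was described by Pearson's r of log2(CPM + 10) over 12 points, 6 classes in 2 libraries that share cells' depth and background, among 4891 genes. Fcer1g was most like Tyrobp (0.990), the other small adaptor of myeloid and NK cells. Fcgr1a was most like Lilrb4 (0.994), with Fth1, Clec7a, Cd302 and Fes next. Among named genes Fcgr3a was most like Fam20b (0.977), then Ly49si1 and Calhm2, and Fcgr2b most like Pfkfb3 (0.955), then Bmp2k, Tmem192, Marcks and Mgst2. Between members, r was 0.77 for Fcer1g and Fcgr1a and -0.11 for Fcgr2b and Fcgr3a.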

How the data were processed

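Per the labels' protocols, CD45+ cells were sorted, processed with the 10x Genomics 3′ v2 kit and sequenced. Per the file headers, the authors' deposited counts (raw UMI counts per gene and barcode) came from Cell Ranger 4.0.0. No source used here names the genome build. The table of cell batches describes other barcodes and was not used.

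Lines of 1 symbol were summed. Barcodes with under 200 genes or over 20% mitochondrial UMIs were removed (315 and 235), as were 634 and 997 doublets called by Scrublet per library (scanpy 1.11.5). Cells were gated by markers, and Leiden clusters (27) were made without the Fc genes. Counts were summed per class and library. A log2 ratio uses a pseudocount of 10 CPM, and only genes at 20 CPM or more in either library are compared. With 1 library per side there is no test. Intervals are exact Poisson or binomial at 95%, and a count of 0 allows 3 counts. The ratio script was tested on simulated counts. Named were the 4 members in each class, pathway genes past 1.5-fold or at 100 CPM or more, and the 5 genes most like each member. Clone- and locus-named genes are not printed. The members and lists were chosen with earlier results of these data known.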

Additional observations from a re-analysis of the deposited data

How the results depend on the processing

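The main results are the 7 log2 ratios and the 2 activating shares. All 9 stayed within their counting error with 4 markers, at most 10% mitochondrial UMIs, cells of 1500 UMIs or more, or doublets kept, and the 7 ratios did so with a pseudocount of 1. No ratio past the fold changed direction. The activating share of macrophages was 69.8% in library 1 and 85.1% in library 2 when a second class could have 0.75 times as many markers, and 63.3% and 80.2% with classes taken from clusters. Centring on the median gene gave 0.14 for Fcer1g in macrophages. Weighting each cluster's CPM by its cells in both libraries together gave 0.087 for Fcgr1a, 1.44 for Fcgr3a and -0.23 for Fcgr2b in macrophages, and 0.093 for Fcgr3a in NK cells, where the sign turned from -0.12. The cause of these shifts was not tested. With the 0.75 gate Fcgr2b in non-classical monocytes was 75.8 and 27.5 CPM. With classes from clusters Fcgr3a in T cells was 24.1 and 36.1 CPM, and Fcgr2b in T cells 2.63 and 1.98 CPM. With no minimum level the share of genes past 1.5-fold in macrophages was 1.57%, and 3 of the 5 genes most like Fcgr3a and 2 of those most like Fcgr2b were shared. No paired analysis was possible because each group has 1 sample and the libraries could not be tied to groups. Depth limits the classes with few UMIs of a gene, such as Fcgr3a in classical monocytes and Fcgr2b in non-classical monocytes.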
